A study of Mus musculus with 416 samples.

Results

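NMDA receptors, the glutamate-gated calcium channels of excitatory synapses, were described here through the transcripts of 6 subunit genes, Grin1, Grin2a, Grin2b, Grin2c, Grin2d and Grin3a. The genes were chosen by symbol: each is the row whose Ensembl ID carries that symbol, and together they are 6 of the 46517 gene IDs in the deposited table. All 6 had reads in each of the 416 libraries, and all 6 passed the filter on low counts that left 22968 genes for testing. The rule uses the symbols alone. The libraries hold total RNA of striatum, depleted of ribosomal RNA, from drug-naïve J:DO mice. J:DO is the Diversity Outbred stock, whose animals are each a different genetic mosaic of the founder strains. A number, a sex (F or M) and an outbreeding generation (G21, G22 or G23) are labelled for every library. There were 76 libraries labelled female and 74 labelled male in generation 21, 60 and 59 in generation 22, and 72 and 75 in generation 23. No treatment, age or genotype separates the groups, so sex and generation are the comparisons that the design allows. A generation cannot be told apart from its cohort, its date or its batch of dissection and sequencing.

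An NMDA receptor is a tetramer built around GluN1, the obligatory glycine-binding subunit encoded by Grin1, together with glutamate-binding GluN2A to GluN2D subunits (Grin2a to Grin2d) or with the glycine-binding GluN3A subunit (Grin3a). The channel opens when glutamate and a co-agonist, glycine or D-serine, are both bound and depolarisation has lifted the magnesium block, and it then lets calcium in. In striatum the receptors sit on spiny projection neurons and interneurons that receive glutamate from cortex and thalamus, and the GluN2 subunit sets how long the current lasts and how strongly magnesium blocks it. GluN2B dominates early forebrain development and GluN2A is added later, while GluN2C and GluN2D are known from cerebellum, thalamus, interneurons and glia. GluN3A makes receptors with little calcium entry and weak magnesium block.

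The genes lie on separate chromosomes: Grin1 on 2, Grin2a on 16, Grin2b on 6, Grin2c on 11, Grin2d on 7 and Grin3a on 4. No coordinates are printed, since the sources used here do not name the build of the counts.

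Total counts ran from 20331737 to 77458200 per library (median 43516282), which put at least 7531 counts on Grin1, 28726 on Grin2b and 85 on Grin2d in every library. In 29 libraries the female-specific transcript Xist lay on the wrong side of 100 CPM for the labelled sex. In 29 libraries the total was low (1) or the correlation with the other libraries was low (28), and these are called atypical libraries below. The labelled tissue carried its defining markers, with median levels of 1032 CPM for Ppp1r1b (DARPP-32, of spiny projection neurons) and 125.8 CPM for Drd2, but these fell to 14 and 1.53 CPM in 1 library (female replicate 34 of generation 21; replicates are numbered in order of accession). The unit CPM is a TMM-scaled count relative to library size, and values per kb divide them by the annotated exon length of the gene. Markers of neighbouring tissue varied widely: the summed level of 8 cortical excitatory neuron markers ran from 6.23 to 1007 CPM, that of 6 thalamic markers from 31.8 to 2298 CPM, and that of 9 spiny projection neuron markers from 553 to 11115 CPM. In bulk tissue, fewer cells of a type and less RNA per cell cannot be told apart.

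Per kb of exon, Grin2b was the most abundant subunit transcript, at a median of 59.1 CPM per kb (33.1 to 81.7). Grin1 followed at 38.3 (27 to 51.2) and Grin2a at 23.5 (15.7 to 63). The other genes were far lower, with 5.4 for Grin2c, 1.45 for Grin3a and 0.769 CPM per kb for Grin2d. This order held within nearly every library: of 416 libraries, Grin2b exceeded Grin1 in all but 1, Grin1 exceeded Grin2a in all but 2, Grin2a exceeded Grin2c and Grin2c exceeded Grin3a in 416, and Grin3a exceeded Grin2d in all but 4. The place of Grin1 against Grin2b depends on the length used. Per kb of the longest coding transcript Grin1 stood at 86.9 and Grin2b at 61, and Grin1 was the higher in all libraries but 1. Per kb of coding sequence Grin2b was again higher (330 against 129.2). By coding length 2 neighbours lay close: Grin1 exceeded Grin2a in all libraries but 17 and Grin2c exceeded Grin3a in all but 69, the latter by 0.44 ± 0.43 log2 units (mean ± SD, n = 416), a gap about as large as its spread.

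**Figure D1:**
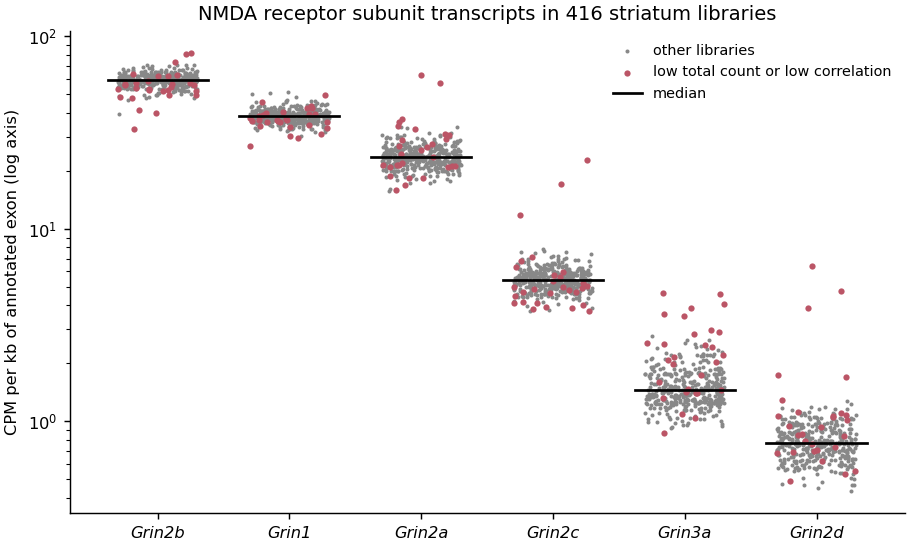
Level of each subunit transcript in 416 libraries, in CPM per kb of annotated exon on a log axis, 1 point per library, with the median as a line and the 29 atypical libraries (low total or correlation) in red. Medians step down from 59.1 (Grin2b) to 0.769 (Grin2d), and the far points of Grin2a, Grin2c and Grin2d are red.

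Among the GluN2 genes, Grin2b made up 66.1% ± 3.15 (SD, n = 416) of the summed level per kb of exon. Grin2a made up 26.8% ± 3.18, Grin2c 6.18% ± 1.23 and Grin2d 0.916% ± 0.379. Per kb of coding sequence the Grin2b share was 75.6% ± 2.83. The share of Grin2a ran from 20.7% to 41.7% and that of Grin2b from 52.6% to 72.1%, so no library had more Grin2a than Grin2b on this scale.

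The genes differed in how much they varied between animals. The coefficient of variation of the CPM was 8.29% for Grin1 and 8.55% for Grin2b, against 17.1% for Grin2a, 23.6% for Grin2c, 49.7% for Grin2d and 30.5% for Grin3a. Without the 29 atypical libraries these values were 7.83%, 7.27%, 12.5%, 13%, 20.3% and 22.3% in the same order. Counting error alone gives 0.792%, 0.4%, 0.744%, 2.94%, 6.81% and 3.61% in that order as well, given here as a description. Grin3a had the highest coefficient of variation without the atypical libraries, and Grin2d with them.

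Grin1, the obligatory subunit, had a median of 371.8 CPM with a lowest library of 261.9 and a highest of 496. No library lay more than 1.5 times above or below the median. The lowest value came from male replicate 26 of generation 21, which also held the lowest Grin2b (822 CPM) and 13849 CPM of the choroid plexus transcript Ttr. The 3 highest Grin1 libraries were all of generation 21 and carried 1397 to 1508 CPM of Ppp1r1b. Over the 416 libraries, with sex and generation means taken out, Grin1 was most negatively related to the ependymal marker score (mean log2 CPM of the list; r = -0.43, rho = -0.36, permutation p = 1e-05, adjusted 2.4e-05, r = -0.41 without the 2 farthest libraries). A p of 1e-05 is the smallest that the permutations can give. The genes whose pattern was most like that of Grin1, among 14962 compared, were Slc12a5 (the neuronal chloride exporter KCC2; r = 0.74), Adgrl1 (a presynaptic adhesion receptor; 0.73), Atg9a (0.72), Jph3 (0.67) and Sema6b (0.67), given as a description. The annotation places 13.5% of the exon bases of Grin1 under an antisense gene, Grin1os, which had a median of 18.8 CPM. The strand setting of the counting is not given in the sources used here.

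Grin2b, which encodes the juvenile-type GluN2B subunit, had the highest read level of the family at a median of 1467 CPM, between 822 and 2029 CPM. Its upper end was set by male replicates 29 and 31 of generation 22, at 2029 and 2004 CPM. These libraries held 32.6 and 33.2 CPM of Lct, 62.9 and 56.6 CPM of Fibcd1 and 138.5 and 115.3 CPM of Prox1. These genes were listed as markers of hippocampal neurons, and their medians were 0.241, 9.26 and 29 CPM. Prox1 was also high, at 112.2 to 174.6 CPM, in female replicates 34 and 1 and male replicate 35 of generation 21. In those libraries, which carried thalamic markers (described below), Lct was at 0.285 to 1.26 CPM and Fibcd1 at 0.427 to 6.48 CPM. High Prox1 was therefore not limited to libraries with high Lct and Fibcd1. Grin2b moved down with the cortical excitatory score (r = -0.30, rho = -0.33, permutation p = 1e-05, adjusted 2.4e-05, r = -0.29 without the 2 farthest libraries). Within generations 21, 22 and 23 the r was -0.34, -0.20 and -0.36. With the spiny projection neuron score the r of Grin2b was 0.16 over all libraries (rho 0.49, permutation p = 0.00586, adjusted 0.00941) and 0.33 without the 2 farthest libraries. It was 0.46 (rho = 0.50) without the atypical libraries, so the size of the pooled r depends on those libraries. Within generations 21, 22 and 23 it was 0.12, 0.02 and 0.48 (rho 0.40, 0.46 and 0.55). Genes most like Grin2b were Epha4 (an ephrin receptor; r = 0.61), Lrrc7 (the postsynaptic scaffold densin; 0.60), Lrfn5, Nalcn and the unnamed model B230334C09Rik (0.57 each).

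Grin2a, which encodes the adult-type GluN2A subunit, had a median of 421 CPM, a lowest library of 281.1 and a highest of 1129 CPM. Only 4 libraries exceeded the median by more than 1.5 times, and all 4 were atypical. The highest were the same male replicates 29 and 31 of generation 22, at 1129 and 1025 CPM, followed by male replicate 10 of generation 23 at 668 CPM. That library held 113.4 CPM of the deep-layer cortical factor Tbr1, against a median of 7.18. Over all libraries Grin2a rose with the cortical excitatory score (r = 0.54, rho = 0.53, permutation p = 1e-05, adjusted 2.4e-05, r = 0.54 without the 2 farthest libraries). The relation was present in each generation, with r of 0.33, 0.60 and 0.72 in generations 21, 22 and 23. Grin2a went down with the ependymal score (r = -0.49, rho = -0.46, permutation p = 1e-05, adjusted 2.4e-05, r = -0.47 without the 2 farthest libraries). Genes most like Grin2a were Scn8a (the sodium channel Nav1.6; r = 0.78), Zbtb18 (0.75), Mapk10 (the neuronal kinase JNK3; 0.74), Cadps (0.73) and Fam155a (0.73).

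The ratio of Grin2a to Grin2b, a marker of NMDA receptor maturation that needs no scaling between libraries, had a median of -1.35 as log2 of the levels per kb. It ran from -1.76 to -0.36, and 0 of 416 libraries lay above 0. Mean ratios were -1.40 ± 0.19 (SD over the 76 and 74 libraries of the 2 sexes) in generation 21, -1.32 ± 0.24 (60 and 59) in generation 22 and -1.22 ± 0.22 (72 and 75) in generation 23. The difference between generations 23 and 21 was 0.18 (permutation p = 1e-05, adjusted 4e-05 over the 4 comparisons), that between 22 and 21 was 0.07 (adjusted permutation p = 0.00832) and that between 23 and 22 was 0.11 (adjusted permutation p = 0.00052). After the cortical score was taken out the differences were 0.01, 0.02 and -0.01 (adjusted permutation p = 0.721 each). Libraries labelled female and male differed by 0.03 (permutation p = 0.235), and by 0.05 (permutation p = 0.0173) without the atypical libraries.

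Grin2c and Grin2d, the GluN2 genes of thalamus, cerebellum and interneurons, were low in nearly all libraries and high in the same few. Grin2c had a median of 27.2 CPM (18.9 to 115.1) and Grin2d a median of 5.12 CPM (2.89 to 42.6). The 3 highest libraries of both genes were female replicates 34 and 1 and male replicate 35 of generation 21. Female replicate 34 held 115.1 CPM of Grin2c and 42.6 of Grin2d, male replicate 35 held 86.5 and 25.8, and female replicate 1 held 59.5 and 31.7. The same libraries carried 1352, 917 and 534 CPM of Prkcd and 290.8, 191.2 and 183.2 CPM of Slc17a6, markers of thalamic neurons with medians of 5.17 and 1.04 CPM. Ppp1r1b was at 14, 543 and 190 CPM in them. They were 4.23, 3.18 and 2.19 times the median for Grin2c and 8.31, 5.04 and 6.19 times for Grin2d, while Grin1 (423, 439.8 and 325.6 CPM) stayed within the range of the others.

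With these libraries in, Grin2d followed the thalamic score (r = 0.64, rho = 0.36, permutation p = 1e-05, adjusted 2.4e-05, r = 0.49 without the 2 farthest libraries), and without the atypical libraries the r was 0.31. Within generations 21, 22 and 23 it was 0.77, 0.20 and 0.46. Grin2c had r = 0.43 with the thalamic score but rho = 0.01 (permutation p = 1e-05 and 0.803, adjusted 2.4e-05 and 0.827). Its r was 0.15 without the 2 farthest libraries and 0.06 without the atypical ones, so that relation rests on those libraries. Grin2c kept a smaller relation with the astrocyte score (r = 0.34, rho = 0.22, permutation p = 1e-05, adjusted 2.4e-05, r = 0.21 without the 2 farthest libraries, 0.23 without the atypical ones). Within generations 21, 22 and 23 the r with the astrocyte score was 0.44, 0.13 and 0.28. With the score of oligodendrocyte precursors, the dividing glia of the oligodendrocyte lineage, the r of Grin2c was 0.35 (rho = 0.29, permutation p = 1e-05, adjusted 2.4e-05, r = 0.31 without the 2 farthest libraries, 0.30 without the atypical ones), and 0.45, 0.07 and 0.33 within generations. Genes most like Grin2c were Acsbg1 (a fatty acid ligase; r = 0.59), Fgfr3 (itself a member of the astrocyte list; 0.58), Lrig1 (0.58), Nacc2 (0.58) and Chrnb2 (0.56), and without the atypical libraries their r was 0.45, 0.43, 0.30, 0.38 and 0.20. Those most like Grin2d were Kcnc1 (the fast potassium channel Kv3.1; r = 0.67), Slc6a11 (the GABA transporter GAT-3; 0.67), Adarb1 (an RNA editing enzyme; 0.66), Cables2 (0.65) and Shisal1 (0.65), and their r fell to between 0.32 and 0.39 without the atypical libraries. An unnamed antisense model, Gm45441, covers 9.66% of the exon bases of Grin2d.

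Grin3a, the glycine-binding subunit, had a median of 17.7 CPM, from 10.7 to 56.7. In 38 libraries it exceeded the median by more than 1.5 times, and 14 of these were atypical. The highest were female replicate 30 of generation 21 at 56.7 CPM, and female replicate 1 of generation 21 at 56.2 CPM, which carried the thalamic markers described above. Female replicate 30 held 20.1 CPM of Slc17a6 (median 1.04), 23.9 CPM of Prkcd (5.17), 33.6 CPM of Tbr1 (7.18) and 83.7 CPM of the interneuron peptide Sst (36.1), and its Ppp1r1b was at 438 CPM (median 1032). Grin3a followed the cortical excitatory score (r = 0.63, rho = 0.65, permutation p = 1e-05, adjusted 2.4e-05, r = 0.62 without the 2 farthest libraries). The r was 0.45, 0.71 and 0.77 within generations 21, 22 and 23, and 0.66 without the atypical libraries. It also followed the thalamic score (r = 0.60, rho = 0.54, permutation p = 1e-05, adjusted 2.4e-05, r = 0.57 without the 2 farthest libraries), with r of 0.70, 0.43 and 0.58 within generations. Against the spiny projection neuron score the relation was negative (r = -0.66, rho = -0.57, permutation p = 1e-05, adjusted 2.4e-05, r = -0.70 without the 2 farthest libraries), with r of -0.68, -0.73 and -0.66 within generations. Scores of 6 lists (cortical, thalamic, hippocampal, astrocyte, oligodendrocyte and choroid plexus) together with sex and generation accounted for 67.2% of the variance of Grin3a between libraries, against 5.63% for sex and generation alone. For Grin1 the same figures were 20.8% and 7.87%. With the scores the share was 47.2% for Grin2a, 24.7% for Grin2b, 38.6% for Grin2c and 46.6% for Grin2d. Without the atypical libraries it was 17.4% for Grin1, 44% for Grin2a, 25.5% for Grin2b, 15.2% for Grin2c, 16.6% for Grin2d and 59.6% for Grin3a. Genes most like Grin3a were Disp2 (r = 0.82), Mast1 (0.81), Sh3gl2 (the endocytic protein endophilin A1; 0.81), Cacna1g (the T-type calcium channel Cav3.1; 0.80) and Sez6l (0.80). Each of the 6 members was related to each of 17 marker scores, with p adjusted over all of these relations and both measures. Of these relations 64 passed the threshold of adjusted p under 0.05, and in 17 both r and rho were above 0.3 in size. With this many libraries a small r passes. The share of relations of other genes that pass is not given here, so nothing particular to the members is read from this count.

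**Figure D2:**
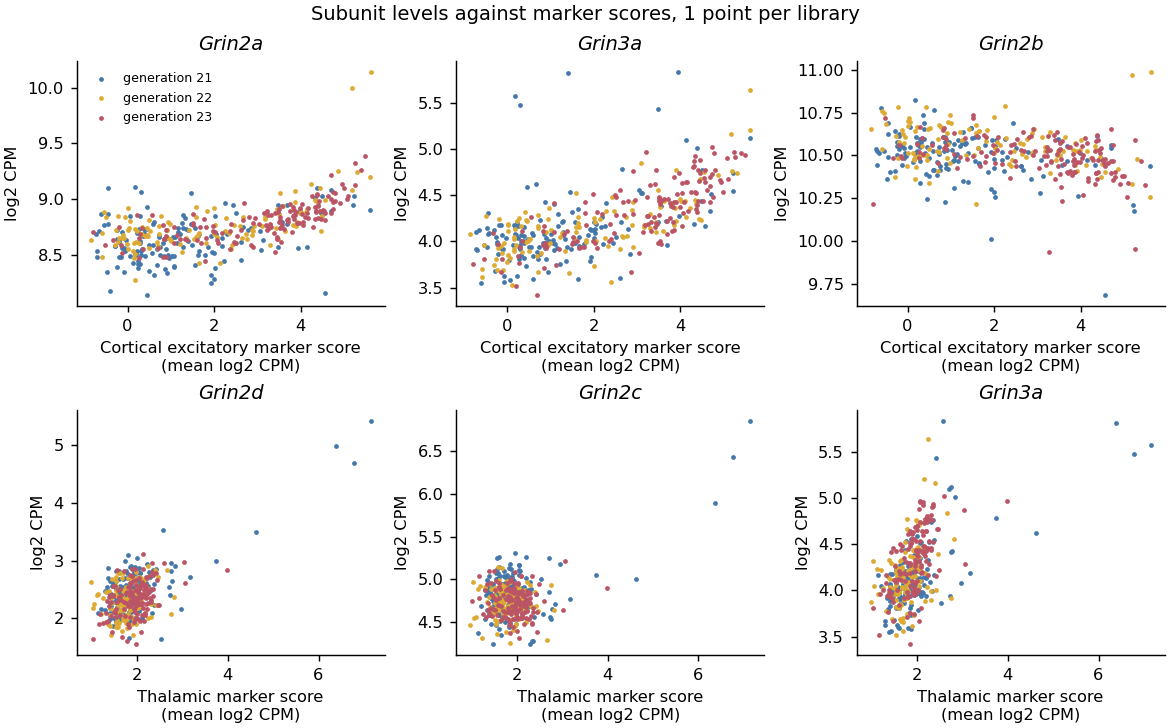
Log2 CPM of members against the cortical excitatory marker score (top) and the thalamic marker score (bottom), both as mean log2 CPM of the list, 1 point per library, coloured by generation. Grin2a and Grin3a climb along the cortical score while Grin2b does not, and 3 libraries of generation 21 sit alone at the right of the thalamic panels for Grin2c and Grin2d.

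Between libraries labelled female and male, 0 of the 6 genes were called by edgeR's quasi-likelihood test (adjusted p under 0.05), where 2.86% of all 22968 genes were. At an unadjusted p under 0.05 there was 1, Grin1, where 3952 of all 22968 genes were. DESeq2 called 0 members, where it called 583 of 21881 genes. Mean Grin1 level was 377.5 ± 31.6 CPM (SD) over libraries labelled female and 370.4 ± 30 CPM over libraries labelled male, whose numbers are given above, and the ranges overlapped almost entirely. The log2 difference of Grin1 was 0.03 ± 0.01 (SE; adjusted p = 0.185). The 95% intervals of the sex difference reached from 0.00 to 0.05 for Grin1, -0.02 to 0.06 for Grin2a, -0.02 to 0.03 for Grin2b, -0.03 to 0.06 for Grin2c, -0.04 to 0.13 for Grin2d and -0.08 to 0.07 log2 units for Grin3a. Without the 29 libraries whose Xist went against the label, 0 members were called, where 1094 of 23024 genes were. The log2 differences of the members then lay between -0.00 (Grin3a) and 0.05 (Grin2d). Without the atypical libraries 1 gene was called, where 5.9% of all genes were: Grin2a was higher in libraries labelled female by 0.06 ± 0.02 (adjusted p = 0.0263). The sex difference did not pass the test for differing between generations in any member (0 of 6, against 0.322% of all genes). At an unadjusted p under 0.05 there were 2 members, where 1797 of all 22968 genes were. The 2 members were Grin3a (p = 0.00496, adjusted 0.355) and Grin2d (p = 0.016, adjusted 0.517) in edgeR's quasi-likelihood test.

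Generations 22 and 23 each differed from generation 21 in 5 of 6 members, and from each other in 2, though by little. Against generation 21, generation 23 had more Grin2a and Grin3a and less Grin1, Grin2c and Grin2d, with fold changes between 0.843 (Grin2d) and 1.12 (Grin3a). These are 5 of 6 genes called, 2 higher and 3 lower, where 58.3% of all genes were called, 25.8% higher and 32.6% lower. With 6 genes, nothing particular to the members is read from this count. Against generation 21, generation 22 also had 5 of 6 called, 2 higher (Grin2a and Grin2b) and 3 lower (Grin1, Grin2c and Grin2d), where 46.6% of all genes were called, 22.1% higher and 24.5% lower. The comparisons of generations 22 and 23 with generation 21 share the libraries of generation 21. Between generations 23 and 22 there were 2 of 6 called, Grin3a higher and Grin2b lower, where 18.2% of all genes were called, 8.53% higher and 9.63% lower.

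**Figure D3:**
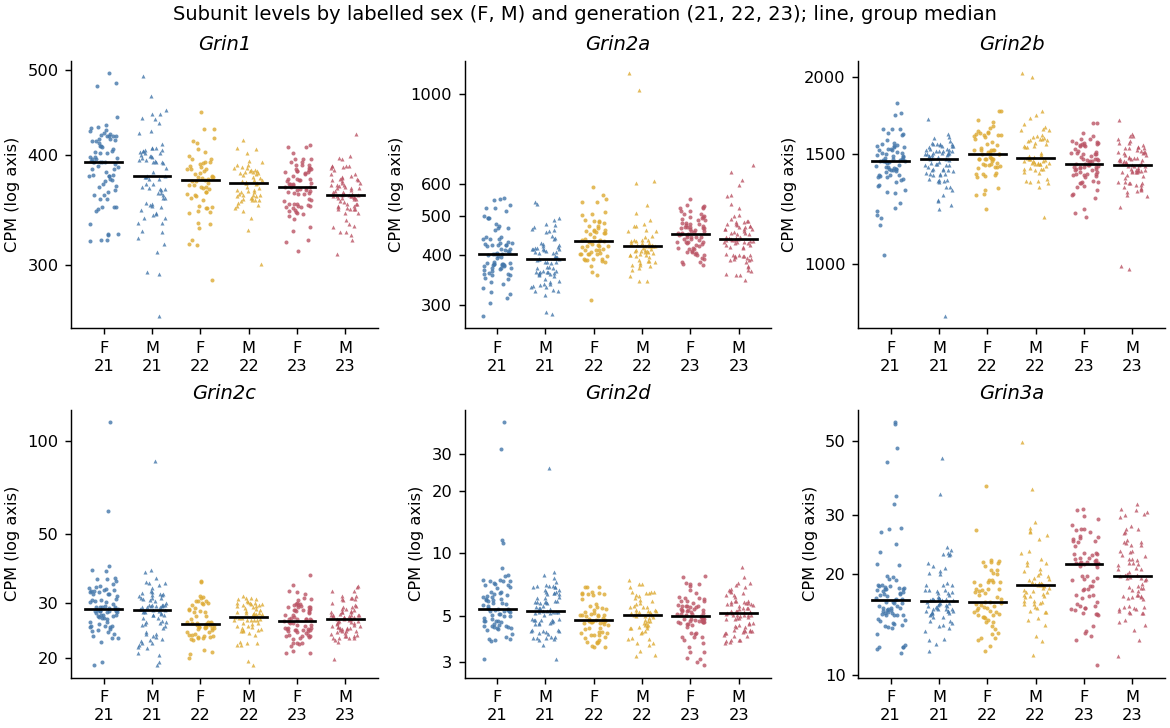
CPM of each member on a log axis in the 6 groups of labelled sex (F, circles; M, triangles) and generation (21, 22, 23), 1 point per library, with the group median as a line. Groups overlap widely for every gene, and the Grin3a medians of generation 23 lie above those of generation 21.

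Grin1 had a lowest, median and highest library of 261.9, 390.1 and 496 CPM in generation 21, of 287.9, 371.9 and 448 CPM in generation 22, and of 308.8, 364.8 and 423 CPM in generation 23. The groups overlapped, while the highest library came down and the lowest went up from generation to generation. The log2 difference was -0.05 ± 0.01 (SE) between generations 22 and 21 (edgeR adjusted p = 0.00119) and -0.08 ± 0.01 between 23 and 21 (adjusted p = 8.37e-08). In libraries labelled male alone the difference between 22 and 21 was -0.03 ± 0.02 (edgeR adjusted p = 0.216), and in those labelled female -0.07 ± 0.02 (adjusted p = 0.00267).

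For Grin2a the corresponding values were 281.1, 395.1 and 552 CPM in generation 21, 308.4, 421 and 1129 CPM in generation 22, and 346.9, 443 and 668 CPM in generation 23. Most libraries of generation 23 lay above the median of generation 21, with wide overlap. The log2 difference was 0.14 ± 0.03 between generations 22 and 21 (edgeR adjusted p = 6.01e-07) and 0.16 ± 0.02 between 23 and 21 (adjusted p = 3.78e-10). Grin2b ranged over 822, 1464 and 1815 CPM in generation 21, 1191, 1488 and 2029 CPM in generation 22, and 979, 1446 and 1705 CPM in generation 23. It was higher in generation 22 than in 21 by 0.06 ± 0.02 (edgeR adjusted p = 0.000383) and lower in generation 23 than in 22 (log2 difference -0.07 ± 0.02, adjusted p = 0.000366), a call that was lost in libraries labelled female alone (-0.05, edgeR adjusted p = 0.107). Between generations 23 and 21 its difference was -0.01 ± 0.01 (adjusted p = 0.599).

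Grin2c had a lowest, median and highest library of 18.9, 28.6 and 115.1 CPM in generation 21, of 19, 26.1 and 35.4 CPM in generation 22, and of 19.8, 26.6 and 37.1 CPM in generation 23. Grin2d had 3.09, 5.37 and 42.6 CPM, 3.22, 4.93 and 7.46 CPM, and 2.89, 5.09 and 8.60 CPM in the same order. The highest libraries of generation 21 were those with thalamic markers. Both genes were lower in the later generations. The log2 difference of Grin2c was -0.16 ± 0.03 between generations 22 and 21 (edgeR adjusted p = 1.3e-06) and -0.16 ± 0.03 between 23 and 21 (adjusted p = 5.41e-07). That of Grin2d was -0.29 ± 0.05 (edgeR adjusted p = 1.06e-06) and -0.25 ± 0.05 (adjusted p = 6.29e-06). In libraries labelled male alone the Grin2d differences were -0.16 ± 0.06 (edgeR adjusted p = 0.0484) and -0.12 ± 0.06 (adjusted p = 0.0844), and in those labelled female -0.42 ± 0.09 (adjusted p = 2.94e-05) and -0.37 ± 0.08 (adjusted p = 5.99e-05). With the 6 marker scores described below, the Grin2c difference between generations 22 and 21 was -0.05 ± 0.02 (edgeR adjusted p = 0.0878). Without the atypical libraries the Grin2d differences shrank to -0.12 ± 0.04 (edgeR adjusted p = 0.00346) and -0.08 ± 0.03 (adjusted p = 0.0287), and the Grin2c difference between generations 23 and 21 to -0.10 ± 0.02 (adjusted p = 2.64e-05). All 6 thalamic markers were called lower in generations 22 and 23 than in generation 21 (median log2 difference -0.55 and -0.46). Their summed level had a median of 52.2 CPM (31.8 to 2298) in generation 21, 51.4 CPM (32.4 to 90.3) in generation 22 and 49.2 CPM (32.1 to 205.3) in generation 23, and Gbx2 and Slc17a6 were at 0 in 2 and 1 libraries. Of the 9 astrocyte markers 6 were called lower and 1 higher in generation 23 than in 21 (median -0.13). Among all genes 32.6% were called lower and 25.8% higher in this comparison. The summed astrocyte level went the other way, with a median of 4330 CPM in generation 21 and 4425 CPM in generation 23. Lower calls were not limited to this list, since of 6 microglia markers 5 were lower and 1 higher.

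Grin3a had a lowest, median and highest library of 11.6, 16.7 and 56.7 CPM in generation 21, of 11.5, 17.7 and 49.7 CPM in generation 22, and of 10.7, 20 and 32.4 CPM in generation 23. The middle of generation 23 was the highest, although its highest library was the lowest of the 3 generations. Grin3a was higher in generation 23 than in 21 by 0.17 ± 0.04 (edgeR adjusted p = 0.000502) and than in 22 by 0.16 ± 0.05 (adjusted p = 0.00945). Without the atypical libraries these differences were 0.27 ± 0.03 (adjusted p = 3.8e-13) and 0.19 ± 0.04 (adjusted p = 2.19e-05), and Grin3a was then also higher in generation 22 than in 21 (0.08 ± 0.04, adjusted p = 0.0469). In libraries labelled female alone the difference between generations 23 and 21 was 0.11 ± 0.07 (edgeR adjusted p = 0.179), and in those labelled male alone the difference between 23 and 22 was 0.07 ± 0.06 (adjusted p = 0.537). Between generations 22 and 21 Grin3a was at -0.14 ± 0.07 in libraries labelled female (edgeR adjusted p = 0.0988) and at 0.16 ± 0.06 in those labelled male (adjusted p = 0.0343). The test of a difference between sexes in these changes was not passed, as given above.

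Cortical markers moved with the generations as well. All 8 cortical excitatory neuron markers were called higher in generation 23 than in 21 (median log2 difference 1.49), and 7 of 8 higher than in generation 22 (median 0.69). Their summed level had a median of 29.6 CPM (6.85 to 838) in generation 21, 43.5 CPM (6.23 to 1007) in generation 22 and 177.6 CPM (6.85 to 784) in generation 23. Among the 8 only Emx1 was at 0 in any library, in 4 of 416. When the cortical score was added to the fit, the Grin2a difference between generations 23 and 21 was 0.03 ± 0.02 (edgeR adjusted p = 0.245), and Grin3a changed direction, to -0.10 ± 0.04 (adjusted p = 0.0156). Between generations 22 and 21 Grin2a remained called in that fit (0.09 ± 0.02, edgeR adjusted p = 0.000148). With the scores of 6 marker lists in the fit, 2 of 6 members were called between generations 23 and 21, where 49.2% of all genes were: Grin1 at -0.08 ± 0.01 (edgeR adjusted p = 2.38e-07) and Grin2d at -0.15 ± 0.04 (adjusted p = 0.000263). In that fit Grin2a was at 0.04 ± 0.02 (edgeR adjusted p = 0.0814), Grin3a at 0.01 ± 0.03 (adjusted p = 0.776) and Grin2c at -0.02 ± 0.03 (adjusted p = 0.629). Between generations 23 and 22 Grin2b alone was called in it (-0.05 ± 0.01, edgeR adjusted p = 0.0405, where 4.72% of all genes were called). With the cortical score alone, 0 of 6 were called between these generations, where 5.96% of all genes were. In that fit 2 members, Grin2a and Grin2b, had an unadjusted p under 0.05 (edgeR), as did 4833 of all 22968 genes. Between generations 22 and 21, 6 of 6 members were called with the cortical score and 4 of 6 with the 6 scores. Among all 22968 genes, 11453 and 9886 were called in those fits. Between generations 23 and 21 the cortical score left 4 of 6 members called, where 13137 of all genes were. Whether the tissue markers account for the differences was not tested beyond these fits.

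**Figure D4:**
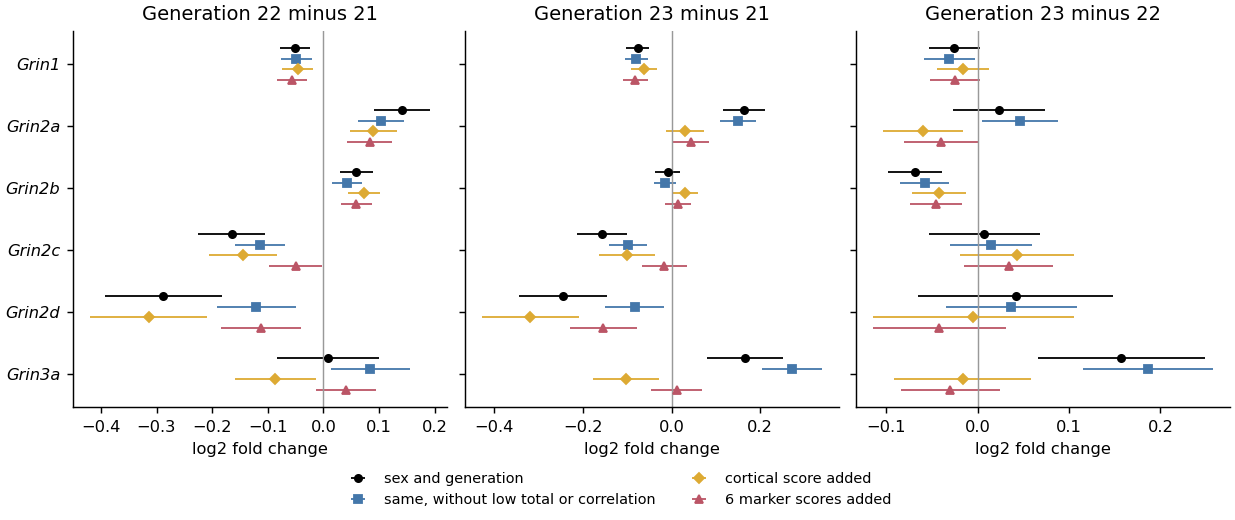
Log2 fold change of each member between generations with its 95% interval, from the fit on sex and generation (black circles), the same without the 29 atypical libraries (blue squares), with the cortical score added (yellow diamonds) and with 6 marker scores added (red triangles). For generation 23 minus 21, Grin1 stays near -0.08 in the plain fit and in that with 6 scores, while Grin2a and Grin3a move from 0.16 and 0.17 to 0.04 and 0.01.

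The members rose and fell together only in part. Of 15 pairs, with sex and generation means taken out, 8 passed the threshold in both Pearson and Spearman form, 7 positive and 1 negative. Only 2 of these 8 had an r above 0.3 in size. With 416 libraries a small r passes, as that of Grin1 and Grin2a did (0.11). The share of other gene pairs that pass is not given here, so nothing particular to the members is read from this count. By Pearson r over all libraries, Grin2d and Grin3a were the closest pair (r = 0.52, rho = 0.37, permutation p = 1e-05, adjusted 4.29e-05, r = 0.45 without the 2 farthest libraries). Their r was 0.66, 0.32 and 0.42 within generations 21, 22 and 23, 0.33 without the atypical libraries and 0.18 with the 6 marker scores taken out. Grin2a and Grin3a had r = 0.47 (rho = 0.42, permutation p = 1e-05, adjusted 4.29e-05, r = 0.42 without the 2 farthest libraries), with 0.25, 0.69 and 0.58 within generations and 0.11 with the 6 scores taken out. Grin2a and Grin3a were the closer of these 2 pairs by rho, and also without the atypical libraries (r = 0.41, rho = 0.39).

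Grin2a and Grin2b, the main GluN2 genes, were weakly related (r = 0.20, rho = 0.09, permutation p = 0.00012 and 0.0641, adjusted 0.000327 and 0.0874, r = 0.11 without the 2 farthest libraries). Without the atypical libraries the r was 0.08 (permutation p = 0.129, adjusted 0.193), so the size of the pooled r depends on them. The relation also differed in sign between generations. Within generation 21 the r was 0.44 (rho = 0.40) and within generation 23 it was -0.21 (rho = -0.24). Within generation 22 the r of 0.26 (rho = 0.08) turned to -0.10 without the 2 farthest libraries. With the 6 marker scores taken out the r of this pair was 0.43 (rho = 0.34, permutation p = 0.0001, the smallest that 10000 permutations can give). Grin2c and Grin2d had r = 0.34 but rho = 0.02 (permutation p = 1e-05 and 0.75, adjusted 4.29e-05 and 0.803). That r was 0.10 without the 2 farthest libraries and -0.00 without the atypical ones, so it rests on them. Within generations 21, 22 and 23 the r of Grin2c and Grin2d was 0.59, -0.17 and -0.12. Grin1, the common partner, was related to Grin2c (r = 0.25, rho = 0.18, permutation p = 1e-05 and 0.00014, adjusted 4.29e-05 and 0.00035, r = 0.23 without the 2 farthest libraries), with 0.35, 0.17 and -0.03 within generations. It was related to Grin2b (r = 0.22, rho = 0.21, permutation p = 1e-05 and 4e-05, adjusted 4.29e-05 and 0.00015, r = 0.14 without the 2 farthest libraries), with 0.15, 0.38 and 0.21 within generations and 0.14 without the atypical libraries. With Grin3a the r of Grin1 was 0.00 (permutation p = 0.953, adjusted 0.986).

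**Figure D5:**
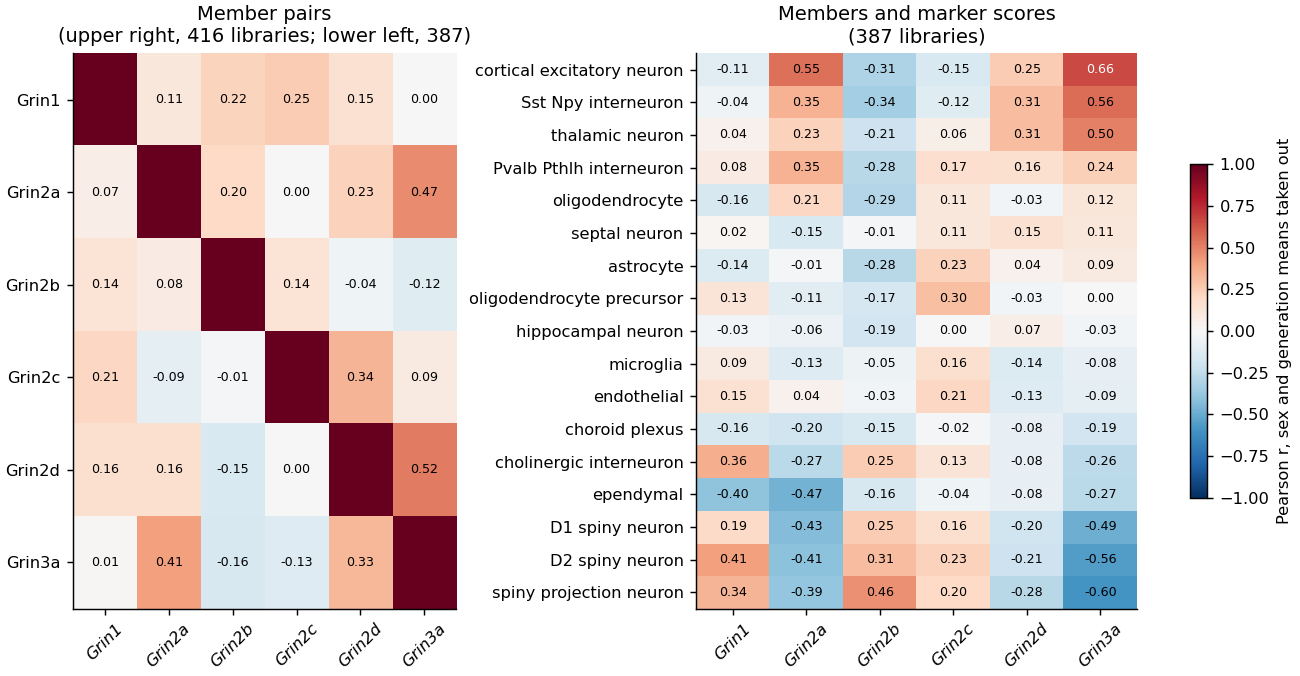
Pearson r of log2 CPM between members (left; 416 libraries above the diagonal, those without the 29 atypical ones below it) and between members and 17 marker scores (right; without the atypical libraries), with sex and generation means taken out. Grin3a shows the widest span in the right panel, from 0.66 with the cortical to -0.60 with the spiny projection neuron score, and the Grin2c and Grin2d pair goes from 0.34 above the diagonal to 0.00 below it.

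Genes that work with the receptor were counted from lists drawn up by function, with earlier results of these data known. Between generations 23 and 21, 20 of 68 partner genes tested were called higher and 29 lower, against 25.8% and 32.6% of all genes, and their median log2 difference was -0.02, the same as that of all genes. Of 14 genes that make, break down or carry the co-agonists and their modulators, 11 were lower and 0 higher (median -0.10). They included Phgdh (the first enzyme of serine synthesis; -0.19, edgeR adjusted p = 5e-14), Slc6a9 (the glycine transporter GlyT1; -0.20, adjusted p = 8.04e-10) and Slc7a10 (the D-serine carrier Asc-1; -0.19, adjusted p = 1.16e-07). Slc7a10 is also a member of the astrocyte list, 6 of whose 9 genes were lower in this comparison. With the 6 marker scores in the fit 5 of these 14 were called lower and 0 higher, against 26.1% and 23.1% of all genes.

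The other lists are given as counts and examples, to be read against the same 25.8% higher and 32.6% lower among all genes. With the 6 marker scores in the fit, 3 scaffold genes were higher and 6 lower, 5 kinase and phosphatase genes higher and 7 lower, 3 trafficking genes higher and 7 lower, and 2 calcium effectors higher and 3 lower. Among all genes that fit called 23.1% higher and 26.1% lower. In the fit without the scores, among 14 postsynaptic scaffold genes 6 were higher and 6 lower in generation 23 than in 21. Homer1, which links the scaffold to metabotropic receptors, was higher by 0.29 (edgeR adjusted p = 8.64e-18), while Dlgap4, a scaffold protein that binds PSD-95, was lower (-0.11, adjusted p = 1.32e-16). Of 16 kinase and phosphatase genes 5 were higher and 5 lower. They included the calcineurin subunit Ppp3cb (0.14, edgeR adjusted p = 1.06e-26), the Cdk5 activator Cdk5r1 (-0.12, adjusted p = 1.07e-19) and Camk2b (-0.16, adjusted p = 2.01e-18). Of 12 trafficking genes 4 were higher and 4 lower, among them Cask (0.07, edgeR adjusted p = 1.89e-07), Ephb2, the receptor that clusters NMDA receptors at synapses (0.33, adjusted p = 1.61e-06), and Scrib (-0.08, adjusted p = 6.57e-06). Of 12 calcium effectors 5 were higher and 3 lower, among them the transcription factors Creb1 (0.16, edgeR adjusted p = 3.15e-23) and Mef2c (0.28, adjusted p = 5.21e-12) and the coactivator Crtc1 (-0.15, adjusted p = 4.66e-16). Between labelled sexes 2 of the 68 were called, both higher in libraries labelled female, where 1.55% of all genes were called higher. Without the atypical libraries 10 were called, all 10 higher (3.69% of all genes), and with the 6 marker scores 8, all 8 higher (2.6% of all genes). The 2 called with all libraries and no scores included Ap2m1, a subunit of the clathrin adaptor complex (0.03, edgeR adjusted p = 0.0273).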

How the data were processed

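RNA-seq of striatum gave 1 column of values per library, for 416 libraries. The deposited values are estimated counts per gene, of which 23.8% were not whole. The labels' protocols name ribosomal RNA depletion, a stranded kit and paired reads. The aligner, counting tool, strand setting, genome build and annotation are not given in the sources used here, and no normalization is stated.

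Gene symbols came from GENCODE M21 by gene ID (98.9% matched). Counts were rounded, which moved 0.005% of the total, filtered with filterByExpr over the 6 groups (minimum count 10), and TMM-scaled. Under R 4.3.3, the quasi-likelihood test of edgeR 4.0.16 (robust setting) took sex and generation as terms. Adjusted p are Benjamini-Hochberg over all 22968 genes, a call is an adjusted p under 0.05, and all tests are two-sided. DESeq2 1.42.0 was an alternative. Log2 CPM carry a prior count of 2. Permutation tests used 100000 resamples, and 10000 in alternatives. The edgeR pipeline was tested on simulated data. Each library was taken as 1 animal. Where nothing shows that libraries are separate animals, p-values measure only the spread between libraries.

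Atypical libraries had a low total (below 0.5 times the median), or correlated with the other libraries at a median that fell below the typical value by over 4 scaled median absolute deviations. The members, the 17 marker lists and the 5 partner lists were chosen with earlier results of these data known. Partner genes named are up to 3 per list and comparison by smallest adjusted p, and likeness names the 5 genes of highest r among genes whose mean log2 CPM was 1 or more. Marker genes named beside single libraries, and Slc7a10 as a shared list member, were chosen after their values were seen. Coding and transcript lengths are those of GENCODE M21 (GRCm38). Some coding sequences and partner genes that the naming rule picked are not reported here. Intervals cover the spread between libraries.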

Additional observations from a re-analysis of the deposited data

How the results depend on the processing

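Of the log2 differences of members under alternatives, 11 kept direction and lost the call, 3 kept direction and gained it, and 24 changed sign, where the cause was not tested. The others kept direction and call. Among the sign changes, Grin3a lost its call between generations 23 and 22 with the cortical score (edgeR adjusted p = 0.85) and with 6 marker scores (0.591), and passed the threshold between 22 and 21 with the cortical score (0.0417). Sign changes between labelled sexes were, in generation 22 alone, -0.024 (Grin2a), -0.014 (Grin2b), -0.036 (Grin2c) and -0.056 (Grin2d); in generation 23 alone, -0.015 (Grin2c), -0.044 (Grin2d) and 0.003 (Grin3a); in generation 21 alone, 0.124 (Grin3a); with 6 marker scores, -0.005 (Grin2c) and -0.035 (Grin2d); and without atypical libraries, -0.012 (Grin2d). Between generations 22 and 21 Grin3a was at -0.011 with total count and mitochondrial share added, -0.086 with the cortical score and -0.142 in libraries labelled female. Between 23 and 21, the cortical score gave 0.031 for Grin2b and -0.103 for Grin3a, and the 6 scores 0.013 for Grin2b. Between 23 and 22, the cortical score gave -0.06 (Grin2a), -0.005 (Grin2d) and -0.016 (Grin3a), the 6 scores -0.04 (Grin2a), -0.042 (Grin2d) and -0.03 (Grin3a), and libraries labelled male -0.003 (Grin2c).

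Members called between sexes went from 0 to 1 without atypical libraries, and between generations 23 and 21 from 5 to 2 with the 6 scores. Between 23 and 22 they went from 2 to 0 with the cortical score, and to 1 with the 6 scores, in libraries labelled female or in those labelled male. The Grin2a to Grin2b ratio differed between sexes by 0.045 (permutation p = 0.0173) without atypical libraries. Between generations 22 and 21 the ratio differed by 0.051 (adjusted permutation p = 0.142) in libraries labelled female, and with the cortical score taken out it differed by 0.016, 0.008 and -0.007 between 22 and 21, 23 and 21, and 23 and 22. Pairs of members past the threshold numbered 5 with the 6 scores taken out and 4 in generation 21 or 22 alone, against 8. Relations with marker scores numbered 37 and 30 in generations 21 and 22 alone, and 61 in generation 23 alone, against 64. Leaving out any 1 library in a linear model of each gene moved no called difference by over 1.5 times. That model's estimates are not those of edgeR. It put Grin2d at -0.188 between generations 22 and 21 and -0.149 between 23 and 21, where edgeR gave -0.288 and -0.246. How far 1 library moves the edgeR differences was therefore not tested. No paired analysis was made, since each library was taken as 1 animal and sex and generation differ between animals. Depth limits Grin2d most, with 85 counts in its lowest library.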

Other observations

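Grin3b, the remaining GluN3 gene, was the lowest of the family, with a median of 0.795 CPM (0.192 to 2.17) over 416 libraries, and 32.1% of its exon bases are shared with Tmem259, which had a median of 38.6 CPM. Its difference between generations 23 and 21 was -0.12 (edgeR adjusted p = 0.0298) and -0.01 with 6 marker scores in the fit, where the call was lost.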
